A study of Mus musculus with 18 samples.

Results

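The 10 genes described here encode serotonin (5-HT) receptors in the mouse: Htr1a, Htr1b, Htr1d, Htr1f, Htr5a, Htr2a, Htr2c, Htr4, Htr7 and Htr3a. They were taken by symbol from the 57180 genes of a deposited table of estimated counts, and all 10 were found. Hippocampal RNA had been sequenced in 18 C57BL/6J mice, wild type, male and adolescent, with 6 to a group. In the CSDS + exercise group, mice received aerobic exercise training that began 1 week before chronic social defeat stress (CSDS) and went on through it. CSDS mice underwent the defeat, a resident-intruder procedure in which a mouse is repeatedly attacked by a larger resident, without training, and control mice received neither. There was no group with exercise alone, so an effect of exercise without stress cannot be told apart from its effect under stress. The age in days and the kind of exercise were not given in the sources used here.

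Serotonin reaches the hippocampus along fibres of raphe neurons of the brain stem, and the cells that receive it differ in the receptors they carry. Receptors of the 5-HT1 and 5-HT5 classes couple to inhibitory Gi/o proteins, those of the 5-HT2 class to Gq and phospholipase C, and 5-HT4, 5-HT6 and 5-HT7 receptors to Gs and adenylyl cyclase. The 5-HT3 receptor is a cation channel that serotonin opens directly. In this tissue the 5-HT1A receptor is known as the receptor of pyramidal neurons through which serotonin hyperpolarises them, and 5-HT1A and 5-HT4 receptors are studied in relation to stress and antidepressant action.

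The receptor genes start in promoters of different makeup. In the 150 bases examined per promoter, GC content ran from 42.7% for Htr1f to 83.3% for Htr7. For 8 of the 10 genes a promoter was matched in RefSeq (GRCm38.p6); Htr3a and Htr4 were not among them. The stretches printed are the 150 bases that begin 250 bases before the RefSeq start, 5′ to 3′ on the strand of the gene. They are shown for Htr1a and Htr2c, the highest members per kilobase, and for Htr2a and Htr5a, which were high together in 1 control mouse. Capitals mark a match, on either strand, to 1 of 5 short motifs searched, which do not overlap each other here.
Htr1a (chr13:105443443-105443592, + strand): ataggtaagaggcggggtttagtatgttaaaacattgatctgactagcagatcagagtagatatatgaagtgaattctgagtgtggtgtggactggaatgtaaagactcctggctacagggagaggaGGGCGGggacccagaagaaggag
Htr2c (chrX:146962263-146962412, + strand): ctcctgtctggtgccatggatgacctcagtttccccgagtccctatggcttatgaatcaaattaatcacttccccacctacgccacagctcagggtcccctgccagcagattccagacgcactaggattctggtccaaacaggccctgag
Htr2a (chr14:74640624-74640773, + strand): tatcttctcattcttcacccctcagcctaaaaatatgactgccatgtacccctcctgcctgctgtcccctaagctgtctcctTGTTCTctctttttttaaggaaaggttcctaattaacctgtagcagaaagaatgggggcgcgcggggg
Htr5a (chr5:27841697-27841846, + strand): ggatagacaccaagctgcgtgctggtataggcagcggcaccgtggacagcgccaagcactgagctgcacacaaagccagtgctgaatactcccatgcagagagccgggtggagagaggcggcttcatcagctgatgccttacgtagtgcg
The Htr1a stretch held 1 GC box (GGGCGG), which 16.8% of the 32544 promoter stretches of the same length in the RefSeq table also held. The Htr2a stretch held 1 site with the letters TGTTCT, known as one arm of the glucocorticoid response element and found in 10.2% of all stretches. The stretches of Htr2c and Htr5a held none of the 5 motifs. The TATA box, searched as TATAAA, was found in 7.26% of all stretches and in none of those printed. The stretches stop short of the bases next to the RefSeq start, so a TATA box there would not have been seen. Whether these promoters have one was therefore not tested. The CCAAT box was found in 19.96% of all stretches and in that of Htr1b, which is not printed. A stretch of Htr1d, also not printed, held a GC box. The core of the cyclic AMP response element, searched as TGACG, was found in 8.43%. These matches describe letters and not bound sites, and no data on binding at these promoters were used here.

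Libraries held between 18911080 and 24136591 estimated counts, and no pair of libraries within a group was alike enough to be 1 library deposited more than once. Genes that mark hippocampal subfields were abundant in 17 of the 18 libraries: Prox1, which granule neurons of the dentate gyrus need, averaged 107 ± 19.8 CPM in CSDS + exercise mice, 87.6 ± 3.18 CPM in CSDS mice and 83.7 ± 36.7 CPM in controls (SD, n = 6 each), or 98.4 ± 8.49 CPM in the 5 controls other than replicate 2. CPM is a gene's count scaled to the library's total after TMM normalization, so that libraries of unequal depth can be compared. Control replicate 2 stood apart. Its mean log2 CPM over 12 dentate granule cell markers was 2.53, against 5.0 to 5.86 in the other 17 libraries. Over 10 CA1 pyramidal cell markers it was 4.41, against 5.33 to 6.41. Over 14 neocortical neuron markers it was 5.05, above the 3.45 to 4.22 of the others. Its dentate marker C1ql2 lay at 0.408 CPM, and its neocortical marker Lamp5 at 258.6 CPM. It thus went against the labelled tissue and was kept in the fit as labelled. The receptor fold changes against controls that move most without it are given both ways below. In tissue of mixed cells, fewer cells of a type and less RNA per cell cannot be told apart.

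**Figure D1:**
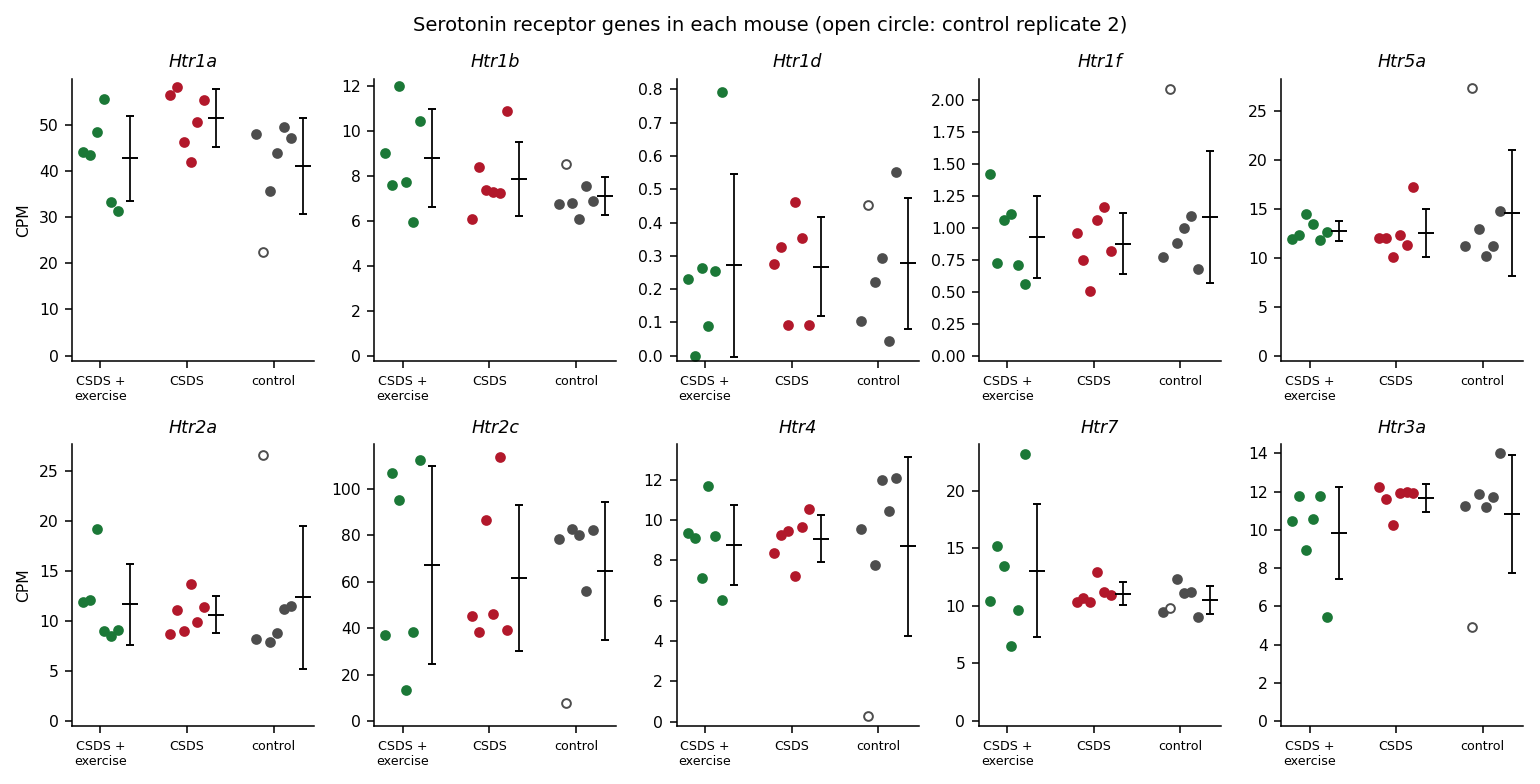
CPM of each of the 10 serotonin receptor genes in every mouse, by group; points are mice, the horizontal tick with bars is the mean ± SD of 6 mice, and the open circle is control replicate 2. The groups overlap for every gene, and the open circle is the lowest control for Htr1a, Htr2c, Htr3a and Htr4 and the highest for Htr1b, Htr1f, Htr2a and Htr5a.

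Htr1a (chr13:105443639-105448122, + strand, a single exon), the inhibitory receptor of pyramidal neurons, was on average the highest member per kilobase of merged exon. By the length of the longest transcript Htr2c came before it. The lowest, median and highest values of Htr1a were 31.4, 43.8 and 55.6 CPM in CSDS + exercise mice, 42.0, 53.0 and 58.2 CPM in CSDS mice, and 22.5, 45.5 and 49.6 CPM in controls. CSDS mice were at the top and the 3 ranges overlapped. The log2 fold change was 0.32 ± 0.17 (SE) in CSDS mice against controls, -0.27 ± 0.17 in CSDS + exercise mice against CSDS mice and 0.06 ± 0.17 in CSDS + exercise mice against controls, and none passed edgeR's quasi-likelihood test (adjusted p = 0.99, 0.43 and 0.93). Limma voom with quality weights, an alternative, gave -0.37 for CSDS + exercise mice against CSDS mice and called Htr1a lower there (adjusted p = 0.020), whereas adjusted p was 0.17 to 0.99 under the other settings. That alternative called 33.3% of all genes in the same comparison. Without control replicate 2, which held the 22.5 CPM, the log2 fold change of CSDS mice against controls was 0.20 ± 0.14.

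Htr1b (chr9:81628291-81633828, - strand), an inhibitory receptor of axon terminals, averaged 8.79 ± 2.18 CPM in CSDS + exercise mice, 7.87 ± 1.66 CPM in CSDS mice and 7.09 ± 0.841 CPM in controls (SD, n = 6 each). Its log2 fold change in CSDS + exercise mice against controls was 0.31 ± 0.16 and did not pass (edgeR adjusted p = 0.48). Exons of Htr1b overlap those of the antisense gene D430036J16Rik, which averaged 2.98 ± 0.998 CPM in CSDS + exercise mice, 2.83 ± 0.852 CPM in CSDS mice and 2.02 ± 0.547 CPM in controls. Libraries were stranded per the labels' protocols, but the strand setting of the counting was not given, and the counts of Htr1b were not whole, so its level is uncertain where the exons overlap.

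Htr1f (chr16:64924729-65105854, - strand), a relative of Htr1b that also couples to Gi/o, lay near 1 CPM. Its lowest, median and highest values were 0.559, 0.891 and 1.42 CPM in CSDS + exercise mice, 0.509, 0.888 and 1.16 CPM in CSDS mice, and 0.678, 0.942 and 2.09 CPM in controls. The 2.09 CPM came from control replicate 2, and the log2 fold change of CSDS mice against controls was -0.31 ± 0.30 with it and -0.02 without it. Htr1d (chr4:136423524-136444398, + strand), the member closest to Htr1b in its class, was near the detection limit, with deposited counts of 0 to 17 per library. It did not pass the filter on low counts and was the only member left untested. It averaged 0.271 ± 0.275 CPM in CSDS + exercise mice, 0.267 ± 0.149 CPM in CSDS mice and 0.278 ± 0.197 CPM in controls, where a library's floor of 3 counts lay between 0.124 and 0.159 CPM. Fitted without the filter, its log2 fold changes were -0.09 ± 0.64 in CSDS mice against controls and 0.018 ± 0.64 in CSDS + exercise mice against CSDS mice (edgeR adjusted p = 1.0 for both).

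Htr5a (chr5:27842149-27855088, + strand), a Gi/o-coupled receptor of neurons, was among the steadiest members apart from 2 mice. Values of Htr5a (lowest, median and highest) were 11.8, 12.5 and 14.4 CPM in CSDS + exercise mice, 10.1, 12.0 and 17.3 CPM in CSDS mice, and 10.2, 12.1 and 27.4 CPM in controls. The 27.4 CPM was control replicate 2 and the 17.3 CPM was CSDS replicate 6. The log2 fold change was -0.22 ± 0.20 in CSDS mice against controls and 0.03 ± 0.20 in CSDS + exercise mice against CSDS mice (edgeR adjusted p = 0.99 and 0.96), and the first became 0.05 without control replicate 2.

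Htr2a (chr14:74640840-74709494, + strand), the Gq-coupled receptor on which psychedelic drugs act and which is dense in neocortex, showed the same mouse at its top. Its lowest, median and highest values were 8.51, 10.5 and 19.3 CPM in CSDS + exercise mice, 8.72, 10.6 and 13.7 CPM in CSDS mice, and 7.93, 10.05 and 26.6 CPM in controls. Control replicate 2 held the 26.6 CPM and CSDS + exercise replicate 3 the 19.3 CPM, and the other 16 mice lay at or below 13.7 CPM. The log2 fold change was -0.22 ± 0.27 in CSDS mice against controls (edgeR adjusted p = 0.99), and its sign turned without control replicate 2, at 0.16.

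Htr2c (chrX:146962513-147197277, + strand), the other Gq-coupled member and one known for its very high level in the choroid plexus, varied most among the tested members. Levels of Htr2c (lowest, median and highest) were 13.6, 66.8 and 112 CPM in CSDS + exercise mice, 38.2, 45.6 and 114 CPM in CSDS mice, and 7.62, 79.4 and 82.9 CPM in controls. The coefficient of variation over the 18 mice was 51.1%, against 21.1% for Htr1a. Each group held both low and high mice, and the SE of its log2 fold changes was 0.50 in each comparison. The log2 fold change was -0.07 in CSDS mice against controls, 0.13 in CSDS + exercise mice against CSDS mice and 0.06 in CSDS + exercise mice against controls (edgeR adjusted p = 1.00, 0.91 and 0.98). Without control replicate 2, which held the 7.62 CPM, the comparisons of CSDS mice and of CSDS + exercise mice with controls gave -0.30 and -0.18. Introns of Htr2c hold 7 microRNA genes and 1 small nucleolar RNA gene on the same strand, none of which overlaps its exons.

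Htr4 (chr18:62324204-62496577, + strand), a Gs-coupled receptor of dentate granule cells and pyramidal neurons, was even across mice but for 1. Levels of Htr4, again the lowest, the median and the highest, were 6.05, 9.16 and 11.7 CPM in CSDS + exercise mice, 7.22, 9.35 and 10.5 CPM in CSDS mice, and 0.272, 10.02 and 12.1 CPM in controls. The 0.272 CPM was control replicate 2, from 6 counts, and the next lowest control lay at 7.75 CPM. The log2 fold changes were 0.06 ± 0.41 in CSDS mice against controls and -0.05 ± 0.41 in CSDS + exercise mice against CSDS mice (edgeR adjusted p = 1.00 and 0.96). Without control replicate 2, the 5 controls averaged 10.4 ± 1.81 CPM (SD), and CSDS mice against controls gave -0.19.

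Htr7 (chr19:35958734-36057507, - strand), a Gs-coupled receptor known from the thalamus as well as the hippocampus, spread most in the exercised mice. Its lowest, median and highest values were 6.54, 11.9 and 23.2 CPM in CSDS + exercise mice, 10.3, 10.8 and 12.9 CPM in CSDS mice, and 9.07, 10.5 and 12.3 CPM in controls. CSDS + exercise replicate 6 held the 23.2 CPM, and CSDS + exercise replicate 4 the 6.54 CPM, the lowest of all 18. The log2 fold change was 0.08 ± 0.21 in CSDS mice against controls, 0.24 ± 0.21 in CSDS + exercise mice against CSDS mice and 0.31 ± 0.21 in CSDS + exercise mice against controls (edgeR adjusted p = 0.99, 0.57 and 0.57). Without CSDS + exercise replicate 6 the comparisons with CSDS mice and with controls gave -0.0062 and 0.07.

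Htr3a (chr9:48899213-48911099, - strand), a subunit of the 5-HT3 channel found in interneurons, was tight in CSDS mice and had 1 low mouse in each other group. Across mice, the lowest, median and highest values were 5.45, 10.5 and 11.8 CPM in CSDS + exercise mice, 10.3, 11.9 and 12.2 CPM in CSDS mice, and 4.90, 11.5 and 14.0 CPM in controls. The low mice were CSDS + exercise replicate 6 and control replicate 2. The log2 fold change was 0.11 ± 0.20 in CSDS mice against controls, -0.25 ± 0.20 in CSDS + exercise mice against CSDS mice and -0.14 ± 0.20 in CSDS + exercise mice against controls (edgeR adjusted p = 0.99, 0.54 and 0.81). The sign of the first turned without control replicate 2, at -0.04, and the last was then -0.29. The partner subunit Htr3b had at most 1 count in any library.

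The study's question for the first comparison was which hippocampal transcripts differ after CSDS. In CSDS mice against controls, 0 of the 9 tested receptor genes passed an adjusted p of 0.05, where 0.0% of the 16738 genes tested did (edgeR, Benjamini-Hochberg over all genes). At an unadjusted p under 0.05, 0 members passed, against 3.51% of all genes. In none of the 9 did the CPM values of both groups fail to overlap, against 0.239% of all genes. The median log2 fold change of the 9 was 0.06, with 5 positive, and that of all genes tested 0.00. DESeq2 called 1 gene (0.00319%) and limma voom 0 genes (0%) in this comparison, and none was a member.

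The comparison of CSDS + exercise mice with CSDS mice asked what training altered under stress. That of CSDS + exercise mice with controls differs in defeat and in training at once and cannot tell their effects apart. In CSDS + exercise mice against CSDS mice, 0 of 9 members passed the adjusted p of 0.05, and 0.0% of all genes did. Unadjusted, 0 members passed, against 15.6% of all genes, and 0 members had groups that did not overlap, against 0.89% of all genes. Their median log2 fold change was 0.09, with 6 positive, and that of all genes was 0.02. DESeq2 called 144 genes (0.46% of those it fitted) and no member, and limma voom with quality weights called 5567 genes (33.3%) and 1 of the 9 members, Htr1a. With edgeR, leaving out CSDS + exercise replicate 4 gave 625 genes and leaving out CSDS replicate 5 gave 43, with no member among either. In CSDS + exercise mice against controls, 0 of 9 members passed where 0.0179% of all genes, 3 in number, did. There 11.2% of all genes passed unadjusted and 0.562% had groups that did not overlap, against 0 members for either. Their median log2 fold change was 0.01, with 5 positive, and that of all genes was 0.01. DESeq2 called 111 genes (0.354%) and limma voom 183 genes (1.09%) there, and no member was among them. Without CSDS + exercise replicate 4 edgeR called 13 genes there, again with no member. Leaving out control replicate 2 turned the sign of the log2 fold change for Htr1a (-0.07), Htr1f (0.07), Htr2a (0.29), Htr4 (-0.24) and Htr5a (0.08) as it did for Htr2c, and none passed. The 3 comparisons share groups and are not independent of each other.

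**Figure D2:**
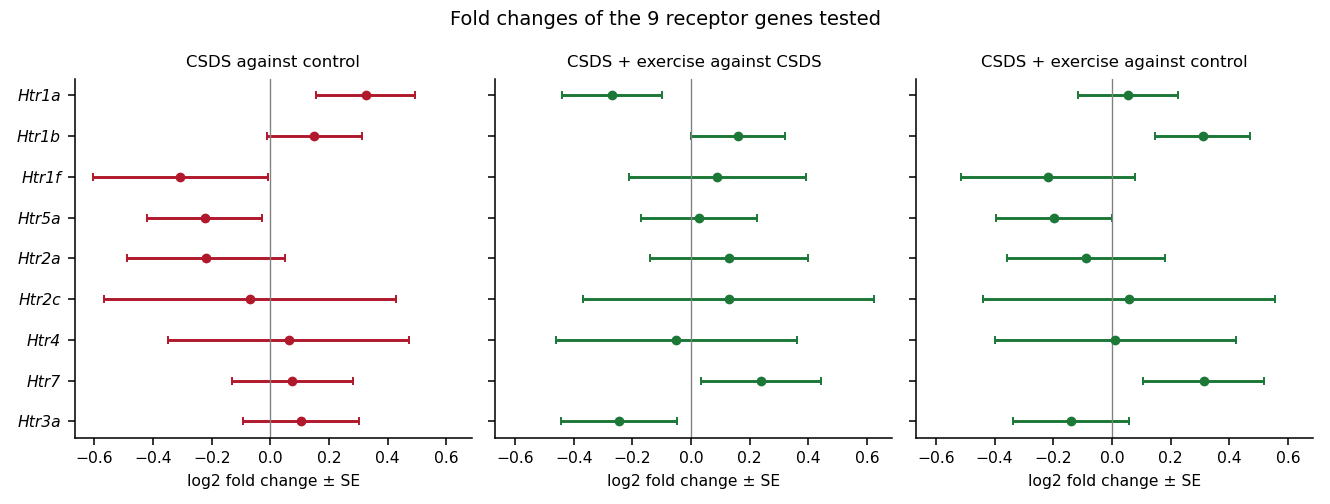
Log2 fold change ± SE (horizontal axis) of the 9 tested serotonin receptor genes in the 3 comparisons, from the edgeR fit over all 18 libraries. No gene passed the test, the values lie between -0.31 and 0.32, and the bars are widest for Htr2c (SE 0.50) and Htr4 (SE 0.41).

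Levels of different genes were compared per kilobase of merged exon, from the GENCODE M21 annotation of GRCm38. Over the 18 mice the order was Htr1a (10.1 ± 2.12 CPM per kb, SD), Htr2c (6.91 ± 3.53), Htr3a (5.18 ± 1.10), Htr7 (3.40 ± 1.02), Htr5a (2.48 ± 0.726), Htr2a (2.07 ± 0.824), Htr4 (1.80 ± 0.551), Htr1b (1.68 ± 0.362), Htr1f (0.374 ± 0.141) and Htr1d (0.0850 ± 0.0627). The 3 groups had the same order by their means, but for Htr1b and Htr4, which changed places in CSDS + exercise mice. Neighbours were compared within each mouse on the log2 scale. The difference exceeded its SD over mice between Htr5a and Htr2a (0.30 ± 0.30, Htr5a higher in 16 of 18 mice), Htr1b and Htr1f (2.18 ± 0.53, 18 of 18) and Htr1f and Htr1d (2.30 ± 1.19, 17 of 18). Htr5a and Htr2a passed this mark only narrowly, with a mean of 0.2959 against an SD of 0.2953. The other neighbours did not differ beyond their spread over the 18 mice, some of them narrowly. Htr3a stood above Htr7 in 16 of 18 mice (0.61 ± 0.63) and Htr7 above Htr5a in 15 of 18 (0.45 ± 0.52). Htr1a stood above Htr2c in 14 of 18 mice and Htr2c above Htr3a in 10 of 18. Without control replicate 2, however, Htr3a exceeded Htr7 (0.67 ± 0.61, 16 of 17 mice) and Htr7 exceeded Htr5a (0.52 ± 0.42, 15 of 17) beyond their spread as well. The order of Htr2a, Htr4 and Htr1b was not firm. Htr2a stood above Htr4 in only 7 of 18 mice, and in 6 of 17 without that library, where their means were 1.91 and 1.90 CPM per kb. Htr4 stood above Htr1b in 12 of 18 mice (-0.08 ± 1.26), and in 12 of 17 without that library (0.20 ± 0.47). With the longest transcript in place of merged exons, Htr2c (13.2 CPM per kb) came before Htr1a (10.1), so the order of these 2 genes depends on the length used.

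**Figure D3:**
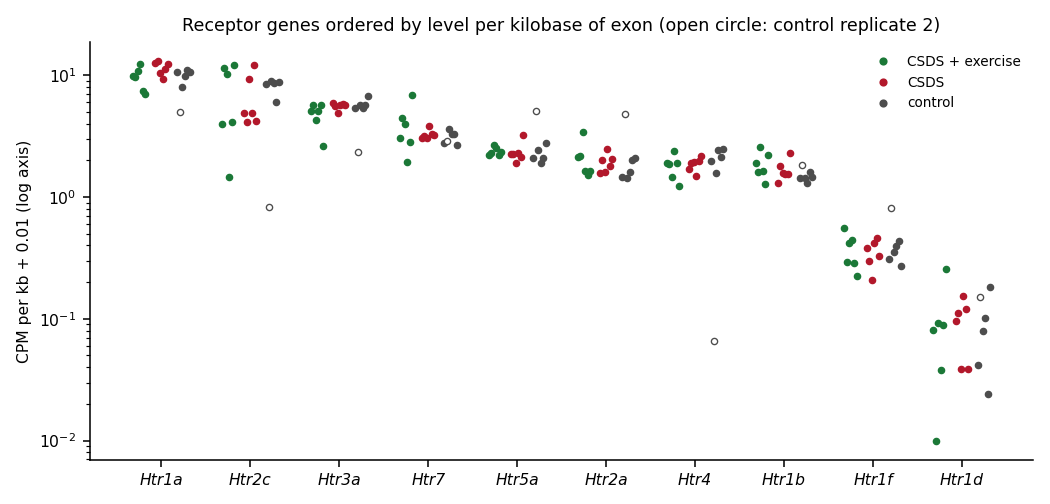
CPM per kilobase of merged exon plus 0.01 (log axis) of the 10 genes in each of 18 mice, ordered by the mean; colours are groups and the open circle is control replicate 2. Htr1f and Htr1d lie apart below the other 8, and Htr4 of control replicate 2 falls far below the other mice.

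Several receptors belong to particular cells, so their levels were set against lists of marker genes that hold none of the receptors, as the mean log2 CPM of each list. There were 6 relations in this family, each tested by permutation, two-sided. The permutations shuffled libraries without regard to group, so their p-values take differences between groups and between mice together. Choroid plexus markers split the libraries into 7 low ones, at 0.33 to 2.45, and 11 high ones, at 4.96 to 6.64, with nothing between. Their best known gene, Ttr, which encodes the transthyretin made by this epithelium, ranged from 26.4 to 6141 CPM in CSDS + exercise mice, from 50.9 to 7939 CPM in CSDS mice and from 12.7 to 5189 CPM in controls. The low libraries were 3 of CSDS + exercise mice, 3 of CSDS mice and 1 control, and the high ones 3, 3 and 5 in the same order of groups. Htr2c lay at 7.62 to 46.0 CPM in the low libraries and at 45.3 to 114 CPM in the high ones, so the ranges met but hardly overlapped. Among the 7 low libraries Htr2c and the markers gave Pearson r = 0.96 (exact permutation p = 0.00099, adjusted p = 0.0030) and Spearman rho = 0.89 (exact permutation p = 0.012, adjusted p = 0.037). Control replicate 2 was the lowest of these 7 libraries in Htr2c, and without it r was 0.90 (exact permutation p = 0.0069, adjusted p = 0.017) and rho 0.83 (exact permutation p = 0.058, adjusted p = 0.15), so that the rank relation no longer passed. Among the 11 high ones r was 0.67 (permutation p = 0.021, adjusted p = 0.032) and rho 0.62 (permutation p = 0.048, adjusted p = 0.096), and r fell to 0.20 without the 2 libraries farthest from the median, so that relation rests on them. With the marker level as a covariate, the log2 fold change of Htr2c was 0.44 ± 0.24 in CSDS mice against controls, 0.05 ± 0.23 in CSDS + exercise mice against CSDS mice and 0.49 ± 0.24 in CSDS + exercise mice against controls, none past edgeR's test (adjusted p = 0.95, 0.92 and 0.36). The SE was thus less than that of 0.50 without the covariate.

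Htr1a and 10 markers of CA1 pyramidal cells gave r = 0.87 over 18 libraries (permutation p = 7.0e-05, adjusted p = 0.00042) and rho = 0.62 (permutation p = 0.0073, adjusted p = 0.037). Control replicate 2 was lowest in both, at 4.41 for the markers and 22.5 CPM for Htr1a. Without it r was 0.74 over 17 libraries, and without it and CSDS + exercise replicate 6, the 2 libraries farthest from the median, r was 0.61 (permutation p = 0.012, adjusted p = 0.038). The rank relation did not pass in either set, with rho = 0.55 (permutation p = 0.025, adjusted p = 0.13) over 17 libraries and 0.46 (permutation p = 0.078, adjusted p = 0.39) over 16. The CA1 marker levels had medians of 5.95 in CSDS + exercise mice, 6.20 in CSDS mice and 5.99 in controls, so that they moved across groups in the direction of Htr1a. Of these 10 markers, 0 were called in any comparison, and 9 of 10 were above 0 in CSDS mice against controls and 8 of 10 below 0 in CSDS + exercise mice against CSDS mice. Their part in the values of Htr1a was not tested.

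Htr2a and 14 neocortical neuron markers gave r = 0.62 over 18 libraries (permutation p = 0.020, adjusted p = 0.032), whereas rho was 0.04 (permutation p = 0.87). Without control replicate 2 r was 0.11, so the relation rests on that library. Htr7 could be set against thalamic markers only among the 14 libraries low in them, where r was -0.06 (permutation p = 0.83) and rho -0.20 (permutation p = 0.51). The other 4 libraries, controls 1 and 3 and CSDS + exercise replicates 3 and 6, were high, at 4.96 to 6.23 against 3.03 to 3.70, and none was from a CSDS mouse. Tcf7l2, a transcription factor of thalamic neurons, had a median of 6.03 and a highest value of 143 CPM in CSDS + exercise mice, 4.82 and 5.94 CPM in CSDS mice, and 7.12 and 70.0 CPM in controls. Htr7 lay at 6.54 to 15.2 CPM in the 14 low libraries (median 10.5) and at 9.47 to 23.2 CPM in the 4 high ones (median 12.9), so the ranges overlapped widely. The mouse with the highest thalamic marker level, CSDS + exercise replicate 6 at 6.23, was also the one with the highest Htr7. Control replicate 1, also high in the markers, held the 9.47 CPM. With the thalamic marker level as a covariate, Htr7 had a log2 fold change of -0.02 ± 0.18 in CSDS + exercise mice against CSDS mice and 0.23 ± 0.17 against controls. Htr3a and 14 markers of interneurons from the caudal ganglionic eminence, the class known for this channel, gave r = 0.08 (permutation p = 0.75) and rho = -0.06 (permutation p = 0.80) over 18 libraries. This relation turned on 2 libraries: without control replicate 2 r was -0.35 (permutation p = 0.14, adjusted p = 0.23), and without it and CSDS + exercise replicate 4, the 2 farthest from the median, r was -0.57 (permutation p = 0.015, adjusted p = 0.038) and rho -0.36 (permutation p = 0.17, adjusted p = 0.43). The list was highest in control replicate 3 (4.70) and CSDS + exercise replicates 3 (4.70) and 6 (4.68), which were also high in thalamic markers. Htr3a lay at 11.9, 8.94 and 5.45 CPM in these libraries, and the part of thalamic tissue in this relation was not tested.

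**Figure D4:**
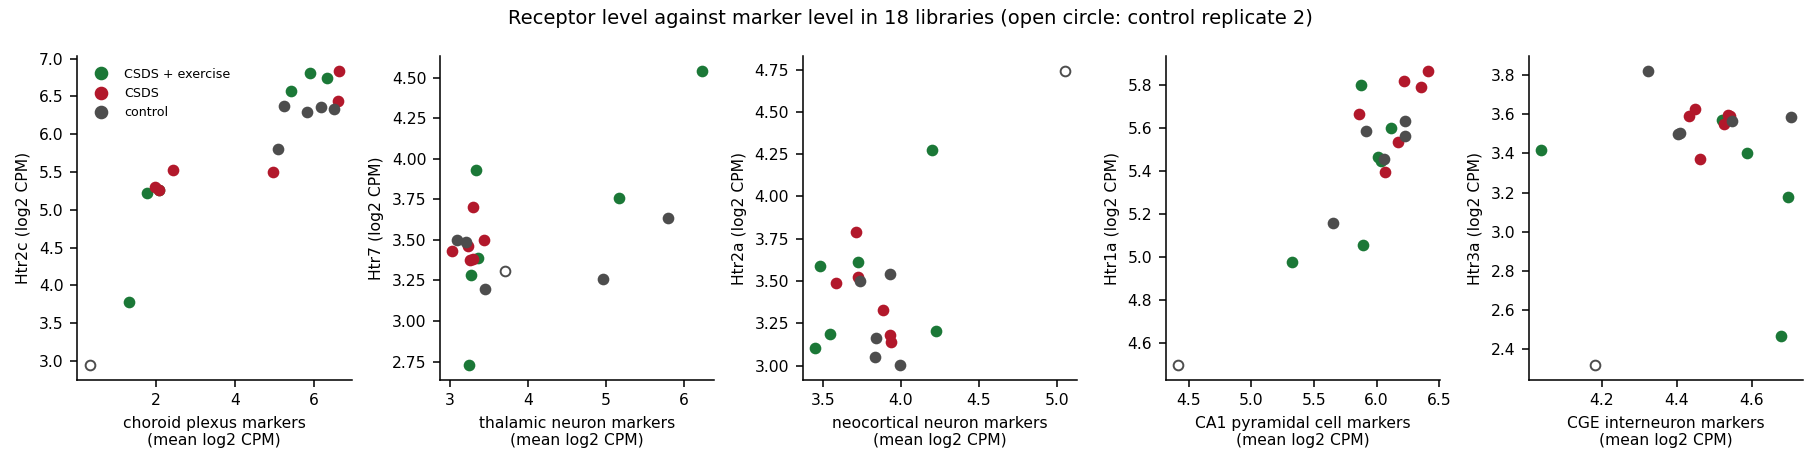
Log2 CPM of 5 serotonin receptor genes (vertical axes) against the mean log2 CPM of a marker list (horizontal axes) in the 18 libraries, coloured by group, with control replicate 2 as an open circle. Htr2c is lower in the 7 libraries low in choroid plexus markers than in most of the 11 high ones, control replicate 2 is lowest in both Htr1a and the CA1 markers, and the highest Htr2a and the highest Htr7 are single libraries.

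Of the 4 other serotonin receptor genes, Htr5b and Htr6 could be tested and Htr2b and Htr3b were at or near 0 counts. Htr5b, a rodent relative of Htr5a, averaged 6.61 ± 1.73 CPM in CSDS + exercise mice, 6.20 ± 1.18 CPM in CSDS mice and 5.45 ± 2.49 CPM in controls, of which control replicate 2 held 0.499 CPM. Without that library the 5 controls averaged 6.43 ± 0.620 CPM (SD). Htr6, coupled to Gs, averaged 3.46 ± 1.85 CPM in CSDS + exercise mice, 5.22 ± 1.70 CPM in CSDS mice and 4.43 ± 1.92 CPM in controls (SD, n = 6 each). Its log2 fold change of -0.59 ± 0.33 in CSDS + exercise mice against CSDS mice did not pass edgeR's test (adjusted p = 0.38). Limma voom with quality weights called it lower there, beside 33.3% of all genes called.

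The genes that make, store, take up and break down serotonin, and those that carry the receptors' signals, were counted in the same fit. Of 16 genes of synthesis, storage, uptake and breakdown, 15 were tested and 0 passed edgeR's test in any comparison; the transporter Slc6a4 was the one not tested, with at most 7 counts in a library. Tph2, the enzyme that makes serotonin in neurons, averaged 1.02 ± 0.297 CPM in CSDS + exercise mice, 0.893 ± 0.234 CPM in CSDS mice and 0.950 ± 0.452 CPM in controls, and the raphe transcription factor Fev had at most 1 count. In CSDS + exercise mice against CSDS mice the smallest p values were those of Spr (27.2 ± 1.17 against 34.99 ± 1.43 CPM), Aldh2 (89.4 ± 10.5 against 123.2 ± 24.5 CPM) and Maoa (42.3 ± 8.09 against 32.2 ± 6.40 CPM). Spr makes the cofactor of tryptophan hydroxylase, Maoa oxidises serotonin and Aldh2 clears the aldehyde that results. Their log2 fold changes were -0.36 ± 0.09, -0.46 ± 0.13 and 0.39 ± 0.15, and their edgeR adjusted p values 0.20, 0.20 and 0.25. DESeq2 called Spr and Aldh2 lower in this comparison, beside 0.46% of the genes it fitted. Limma voom with quality weights called Spr, Aldh2, Maoa and Pts there, beside 33.3% of all genes.

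Of 9 genes of Gi/o alpha subunits and of potassium channel subunits, channels that the beta-gamma subunits released from Gi/o open, all were tested and 0 passed edgeR's test in any comparison. Kcnj5, a low channel subunit, had the smallest p and the highest fold change of the list, at 1.83 ± 2.69 CPM in CSDS + exercise mice and 0.487 ± 0.251 CPM in CSDS mice (log2 fold change 1.90 ± 0.68, edgeR adjusted p = 0.23). CSDS + exercise replicate 6 held 7.26 CPM of it, against 1.89 CPM at most in the other mice, and without that mouse the log2 fold change was 0.60 ± 0.49. Kcnj3, a subunit of the potassium channel through which 5-HT1A receptors act, was at 138 ± 18.2 CPM in CSDS + exercise mice and 116 ± 13.9 CPM in CSDS mice, a log2 fold change of 0.25 ± 0.10 (edgeR adjusted p = 0.27). Of 7 genes of Gq and phospholipase C, 0 passed edgeR's test. Among them Plcb4, a phospholipase C that is high in the thalamus, was at 16.6 ± 4.91 CPM in CSDS mice and 36.4 ± 28.0 CPM in controls (log2 fold change -1.13 ± 0.52, edgeR adjusted p = 0.99), and the fold change was -0.72 ± 0.50 without control replicate 2. Thalamic markers moved the same way, with all 11 tested below 0 in this comparison (0 called), and their part in it was not tested. Gnaq, the Gq subunit itself, was at 277 ± 28.3 CPM in CSDS + exercise mice and 232 ± 24.0 CPM in controls (0.26 ± 0.09, edgeR adjusted p = 0.30).

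Of 9 genes of Gs and adenylyl cyclases, 0 passed edgeR's test in any comparison, and their median log2 fold change in CSDS + exercise mice against CSDS mice was -0.15 beside 0.02 for all genes tested. Adcy5, an adenylyl cyclase, was at 154 ± 23.1 CPM in CSDS + exercise mice and 211 ± 37.2 CPM in CSDS mice (-0.45 ± 0.15, edgeR adjusted p = 0.22). Gnas, the Gs subunit, was at 1149 ± 55.4 CPM against 1278 ± 73.6 CPM in the same groups (-0.15 ± 0.07, edgeR adjusted p = 0.28). Of 12 regulators of the receptors, 0 passed edgeR's test. Cc2d1a, known as a repressor of the Htr1a gene, was at 43.2 ± 7.60 CPM in CSDS + exercise mice and 59.9 ± 12.4 CPM in CSDS mice (-0.47 ± 0.15, edgeR adjusted p = 0.21). Ric3, a chaperone of 5-HT3 channels, was at 89.3 ± 5.78 CPM and 79.5 ± 4.14 CPM in the same groups (0.17 ± 0.07, edgeR adjusted p = 0.27). Rgs4, which shortens Gi/o signals, was at 141 ± 15.3 CPM in CSDS mice and 287 ± 295.6 CPM in controls, a log2 fold change of -1.03 ± 0.38 with a spread among controls wider than their mean (edgeR adjusted p = 0.99). Control replicate 2 held 887 CPM, and without it the 5 controls averaged 167 ± 37.2 CPM and the log2 fold change was -0.25 ± 0.16.

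The counts of 0 in these lists depend on the tool. Limma voom with quality weights called Spr lower in CSDS + exercise mice against controls, 1 gene of all the lists, beside 1.09% of all genes. It called 33.3% of all genes in CSDS + exercise mice against CSDS mice, and among them 4 of the 15 genes of synthesis, storage, uptake and breakdown, 6 of the 9 of Gi/o, 3 of the 7 of Gq, 5 of the 9 of Gs and 5 of the 12 regulators. All 5 of the Gs list (Adcy3, Adcy5, Adcy6, Adcy9 and Gnas) were lower, whereas the Gi/o genes were 3 higher and 3 lower. Unadjusted, edgeR gave 3 genes under 0.05 in each of these lists but the Gq list, which had 0, beside 15.6% of all genes.

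**Figure D5:**
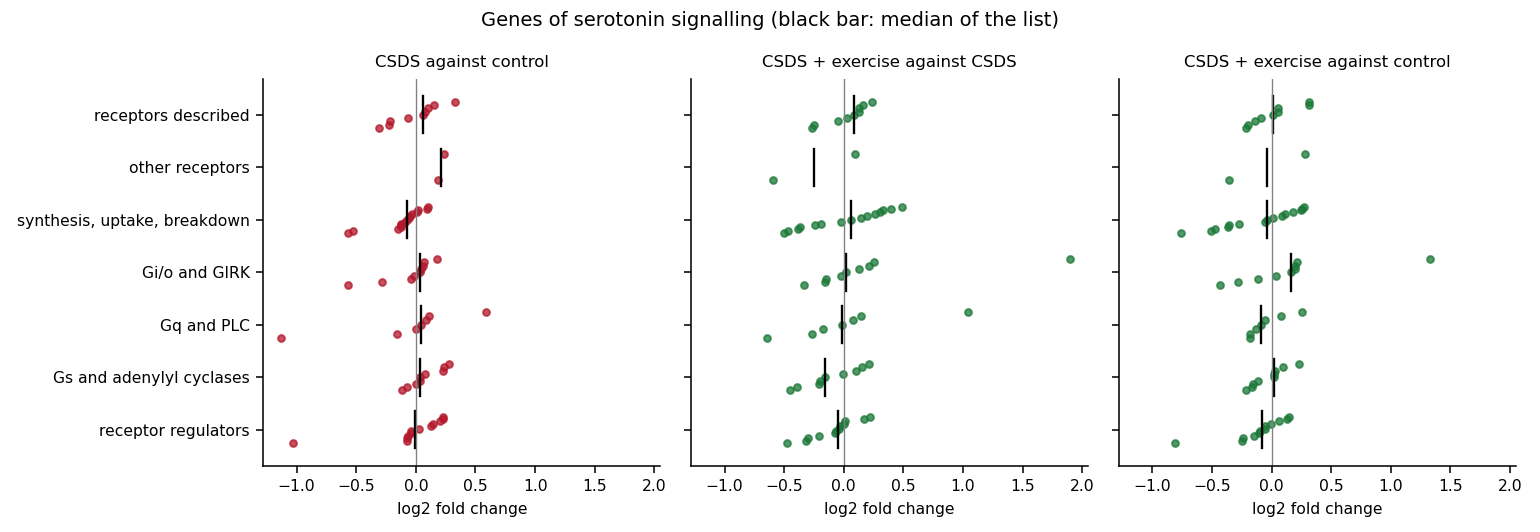
Log2 fold changes (horizontal axis) of the tested genes of serotonin signalling in the 3 comparisons; each point is a gene, each row a list and each black bar the median of its list. No gene of any list passed edgeR's test, and the medians of the 9 receptors described are 0.06, 0.09 and 0.01.

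The genes whose log2 CPM followed each tested member most closely were found among genes with a symbol and a mean of at least 1 CPM, as a description. The search covered 13474 genes (13475 for Htr1f). A value picked as the highest of so many is raised by the picking, and none was tested. Over the 18 libraries, which share control replicate 2 as an extreme, the closest gene was Hrk for Htr1a (Pearson r 0.93), Atp8a2 for Htr1b (0.80), Utp23 for Htr1f (0.81), Adgrl2 for Htr5a (0.92) and Lrrc4c for Htr2a (0.95). It was Iqub for Htr2c (0.95), Thsd4 for Htr4 (0.99), Tmtc2 for Htr7 (0.87) and Kit for Htr3a (0.93). Over the 17 libraries without control replicate 2 these values were 0.85 for Hrk, 0.81 for Atp8a2, 0.76 for Utp23, 0.74 for Adgrl2, 0.89 for Lrrc4c, 0.91 for Iqub, 0.87 for Thsd4, 0.86 for Tmtc2 and 0.88 for Kit. Atp8a2 and Kit were the closest genes in both sets, and the nearest genes of the other 7 members changed to Dcaf6 for Htr1a, Tpm1 for Htr1f, Faxc for Htr5a, Chl1 for Htr2a, Cd59a for Htr2c, Cwc25 for Htr4 and Zcchc12 for Htr7.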

How the data were processed

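Poly(A) RNA of 18 hippocampi was sequenced as stranded libraries, 1 per mouse. The authors deposited 1 table of expected counts (estimated counts per gene and library, not normalized); fastp, HISAT2, RSEM and the builds GRCm38 and mm10 are named per the submitters' processing notes, without versions, while the annotation and the strand setting were not found in the sources used here. Expected counts were rounded and fitted with edgeR 4.0.16 (R 4.3.3; TMM, filterByExpr with a minimum count of 10 and a minimum total of 15, quasi-likelihood F test, 1 term per group, all 18 libraries), which left 16738 genes; p was adjusted over these by Benjamini-Hochberg, with 0.05 as threshold. Log2 CPM used a prior count of 2, and per-kilobase levels divide CPM by merged exon length. The script was checked on simulated data. All libraries carry 1 batch label. A floor of 3 counts covers counting error only.

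The receptors, pathway lists and marker lists were chosen with earlier results of these data known. All 10 receptors are named, with up to 3 genes of each pathway list that had the smallest p in a comparison, the first 2 symbols of a marker list, and the genes closest to each receptor. Nothing states how littermates or cages were spread, so p-values measure the spread between these mice. Alternatives were limma 3.58.1 (voom with quality weights), DESeq2 1.42.0, other scalings and filters, GC correction, marker covariates, the replicate number as a block and each library left out. Correlations across libraries were tested with 100000 permutations, or exactly where libraries were fewer than 10.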

Additional observations from a re-analysis of the deposited data

Results flagged for a closer look

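In 11 of 30 sets of 6 mice (10 genes in 3 groups), 1 mouse lay far from the other 5, by Dixon's criterion at 95%; chance flags about 1 in 20 sets. Control replicate 2 accounted for 6 of the 11: among controls it was the highest for Htr1f (2.09 CPM, next 1.09), Htr2a (26.6 CPM, next 11.6) and Htr5a (27.4 CPM, next 14.8), and the lowest for Htr2c (7.62 CPM, next 55.9), Htr3a (4.90 CPM, next 11.2) and Htr4 (0.272 CPM, next 7.75). Its neocortical markers were the highest and its dentate and CA1 markers the lowest of all libraries; their part in these values was not tested. In CSDS + exercise mice, replicate 6 was apart for Htr1d (0.791 CPM, next 0.265) and replicate 3 for Htr2a (19.3 CPM, next 12.2). In CSDS mice, replicate 3 was apart for Htr3a (10.3 CPM, next 11.6), replicate 6 for Htr5a (17.3 CPM, next 12.4) and replicate 4 for Htr7 (12.9 CPM, next 11.2).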

How the results depend on the processing

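No receptor gene was called under any alternative in CSDS mice against controls or in CSDS + exercise mice against controls. In CSDS + exercise mice against CSDS mice 1 was, Htr1a under limma voom, which called 33.3% of all genes there. None of the 27 fold changes passed its test, and of their 918 values under 34 alternatives 114 took the other sign, of which 44 were over 0.1 in size, the lowest -0.58 and the highest 0.44; the cause was not tested. With 5 libraries high in neocortical or thalamic markers left out (an alternative chosen after seeing the data), the values with the other sign were Htr2a 0.012, Htr3a -0.081, Htr4 -0.34 and Htr5a 0.052 in CSDS mice against controls, Htr1b -0.051, Htr2a -0.033, Htr2c -0.33, Htr4 0.12, Htr5a -0.016 and Htr7 -0.087 in CSDS + exercise mice against CSDS mice, Htr1a -0.087, Htr1f 0.11, Htr2c -0.58, Htr4 -0.22, Htr5a 0.036 and Htr7 -0.0094 in CSDS + exercise mice against controls. With GC correction and control replicate 2 left out, the values with the other sign were Htr2a 0.15, Htr3a -0.057, Htr4 -0.18 and Htr5a 0.082 in CSDS mice against controls, Htr1f -0.16, Htr2a -0.14, Htr2c -0.17 and Htr5a -0.12 in CSDS + exercise mice against CSDS mice, Htr1a -0.11, Htr2a 0.015, Htr2c -0.48 and Htr4 -0.26 in CSDS + exercise mice against controls. With the 3 marker covariates together (also chosen after seeing the data), the values with the other sign were Htr2a 0.040, Htr2c 0.42 and Htr3a -0.073 in CSDS mice against controls, Htr2c -0.19 in CSDS + exercise mice against CSDS mice, Htr1a -0.018, Htr2a 0.30 and Htr4 -0.081 in CSDS + exercise mice against controls. With limma voom, the values with the other sign were Htr2a 0.012, Htr5a 0.026 and Htr7 -0.0018 in CSDS mice against controls, Htr5a -0.010 in CSDS + exercise mice against CSDS mice, Htr1a -0.076, Htr1f 0.030, Htr2a 0.22, Htr2c -0.20 and Htr5a 0.016 in CSDS + exercise mice against controls. With the neocortical covariate, the values with the other sign were Htr2a 0.16, Htr3a -0.085, Htr4 -0.16 and Htr5a 0.040 in CSDS mice against controls, Htr1a -0.075, Htr1f 0.0091, Htr2a 0.28, Htr4 -0.27 and Htr5a 0.082 in CSDS + exercise mice against controls. With the choroid plexus covariate, the values with the other sign were Htr2c 0.44 in CSDS mice against controls, Htr4 0.010 in CSDS + exercise mice against CSDS mice. With the thalamic covariate, the values with the other sign were Htr2c 0.19, Htr3a -0.015 and Htr4 -0.077 in CSDS mice against controls, Htr2c -0.25, Htr4 0.082 and Htr7 -0.018 in CSDS + exercise mice against CSDS mice, Htr2c -0.063 in CSDS + exercise mice against controls. With GC correction, the values with the other sign were Htr1f -0.15, Htr2a -0.14, Htr2c -0.17 and Htr5a -0.11 in CSDS + exercise mice against CSDS mice, Htr2c -0.24 and Htr4 -0.0056 in CSDS + exercise mice against controls. With GC correction and the replicate block, the values with the other sign were Htr1f -0.19, Htr2a -0.12, Htr2c -0.16 and Htr5a -0.090 in CSDS + exercise mice against CSDS mice, Htr2c -0.27 in CSDS + exercise mice against controls. With a filter of 1 CPM in 6 libraries, the values with the other sign were Htr4 -0.012 in CSDS + exercise mice against controls. With library size alone, the values with the other sign were Htr4 -0.0015 in CSDS + exercise mice against controls. Without a filter, the values with the other sign were Htr4 -0.021 in CSDS + exercise mice against controls. With each library left out in turn, the ranges that crossed 0 were Htr2a -0.32 to 0.16, Htr2c -0.34 to 0.035, Htr3a -0.044 to 0.19, Htr4 -0.19 to 0.18 and Htr5a -0.34 to 0.052 in CSDS mice against controls; Htr1f -0.071 to 0.20, Htr2a -0.071 to 0.22, Htr2c -0.081 to 0.37, Htr4 -0.17 to 0.036, Htr5a -0.028 to 0.14 and Htr7 -0.0062 to 0.35 in CSDS + exercise mice against CSDS mice; and Htr1a -0.070 to 0.13, Htr1f -0.38 to 0.074, Htr2a -0.29 to 0.29, Htr2c -0.18 to 0.24, Htr4 -0.24 to 0.13 and Htr5a -0.28 to 0.078 in CSDS + exercise mice against controls.

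Counts over all genes moved more. In CSDS mice against controls DESeq2 called 1 gene. In CSDS + exercise mice against CSDS mice DESeq2 called 144, limma voom 5567, GC correction 1, the neocortical covariate 4, no filter 2 and only the 2 groups 1, and leaving out single libraries gave 0 to 625, the highest without CSDS + exercise replicate 4 and 43 without CSDS replicate 5. In CSDS + exercise mice against controls, where 3 were called, DESeq2 called 111, limma voom 183 and the choroid plexus covariate 8; the filter of 1 CPM, the 5 libraries left out, GC correction alone, with control replicate 2 left out or with the block, the 3 covariates together, the neocortical and thalamic covariates, no filter, only the 2 groups and the replicate block gave 0, and single libraries left out 0 to 13, the highest without CSDS + exercise replicate 4. With the replicate block, 0 genes were called in every comparison. Same-numbered mice of different groups correlated at -0.465 to 0.255, 1 of 18 pairs above 0.1 and no library closest to its own number. These correlations showed no pairing of mice by number. They cannot exclude a shared cage, litter or order of processing, because differences in tissue content between libraries also enter them. The order per kilobase changed for 2 genes with the longest transcript. The relation of Htr2c in the 11 high libraries dropped to 0.205, and that of Htr2a to 0.018, without the 2 farthest libraries, and Htr2a gave 0.11 without control replicate 2. Htr3a gave -0.35 without control replicate 2 and -0.57 without the 2 farthest libraries (permutation p = 0.015, adjusted p = 0.038), and Htr7 0.023 and 0.042.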
